A study of Bos taurus with 20 samples.

Results

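The Polo-like kinase genes PLK1, PLK2, PLK3 and PLK4 were described in the cells of the bovine ovarian follicle. The 4 genes are 4 of the 22550 genes or transcripts measured, and 10 of the 61325 non-control spots of the array carried their names: 2 spots each for PLK1, PLK2 and PLK4 and 4 for PLK3. They were selected on values of these same arrays, in which the kinases were already known to differ between cell types, so their levels and differences are given as a description with no p-value. Gene expression was measured on 20 arrays of 5 groups with 4 arrays each: theca (TH), granulosa cells (GC), cumulus cells before maturation (CC), cumulus cells after 4 h of in vitro maturation (CC-IVM) and immature oocytes. All came from antral follicles of 3 to 6 mm of slaughterhouse ovaries. TH was scraped from the follicle wall and is a tissue layer rather than a pure cell type, and CC surround the oocyte from which they were detached. The study calls the 4 arrays of a group biological replicates, but the sample labels name no animals, so p-values measure the spread between these samples. In such bulk RNA, fewer cells of a type and less RNA per cell cannot be told apart.

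Polo-like kinases are serine/threonine kinases with a catalytic domain and, towards the other end, polo-box domains that dock them to their partners. PLK1 acts at entry into and passage through M phase, where it acts on the CDC25 phosphatases and on the machinery that destroys cyclins, and in the oocyte it takes part in the resumption of meiosis. PLK4 starts the duplication of centrioles, organelles which mammalian oocytes lose during their growth. PLK2 and PLK3 are known as immediate early or stress-responsive genes, induced by growth factors.

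Probes of each gene are shown because the levels below are medians over the spots that carry such sequences. Each probe has 60 bases, of which 30 are printed, 5′ to 3′ as in the scanner files, with the hexamers AATAAA or ATTAAA, the usual signals for cleavage and polyadenylation, in capitals where a probe holds one.
PLK1 probe 1: gaaactacatgagcgagcacttgctgaagg
PLK1 probe 2: gcctttatacacATTAAAcatacgtgaatc
PLK2 probe 2: actgtgaactatggccatatatatattttt
PLK3 probe 1: tatttatggaccacttttatttattgacat
PLK3 probe 2: gcctccttctgggatAATAAAccgtttttg
PLK4 probe 1: aactttgctcttagaacatatacccttgaa
PLK4 probe 2: atggacaaaacatgctggagtttctgaatt
Over the full 60 bases of the probes shown, 1 of these hexamers was found in PLK1 probe 2 and PLK3 probe 2, and 10.9% of the 50909 distinct probe sequences of the array held one. On the opposite strand 5.18% of all probe sequences did. Such a match describes the letters and is not evidence of a used site. Both PLK3 probes were spotted in duplicate. No probe of another gene on the array shared a stretch of 20 bases with any of them. On UMD 3.1, the build of the array design, the files place the PLK1 transcript at chr25:21587069-21597613, PLK2 at chr20:20854607-20860584, PLK3 at chr3:101792010-101796880 and PLK4 at chr17:30185756-30202777. These are spans of whole transcripts, without strand, so the exon or untranslated region under a probe was not located.

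Levels are gene expression values on a log2 scale. From log2 of each spot's processed signal the 75th percentile of its array was subtracted, and a gene was given the median of its spots. A value of 0 is thus the brightness of the 75th percentile, and values compare cells for 1 gene but not genes with each other. Depending on the array, 49.3 to 68.8% of probes were well above background. All 5 theca markers had their highest mean in TH and all 6 oocyte markers in the oocyte. Of the granulosa and cumulus markers, FSHR, CYP19A1 and AMH were highest in CC and INHBA in CC-IVM. Of the cumulus expansion markers HAS2 and PTX3 were found by symbol. HAS2 had its highest mean in CC-IVM (2.20, against -5.56 in CC) and PTX3 in CC (-0.66, against -0.77 in CC-IVM, within the spread).

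PLK2, the inducible kinase, had the widest range. In CC-IVM its level was 4.93, 5.26, 4.65 and 5.22 in replicates 1 to 4 (5.02 ± 0.28, SD, n = 4). In CC it was -2.70, -3.35, -2.95 and -3.22 (-3.06 ± 0.29, n = 4). The lowest CC-IVM array was thus far above the highest CC array. In the oocyte PLK2 was at 1.87, 1.58, 1.68 and 1.69 (1.71 ± 0.12, n = 4), and in TH at 1.10, 0.82, 1.54 and 0.58 (1.01 ± 0.41, n = 4). In GC it was at -4.92, -2.88, -3.26 and -4.77 (-3.96 ± 1.04, n = 4), where probe 2 passed the background mark on 2 of the 4 arrays. From high to low the order was CC-IVM, oocyte, TH, CC and GC, in which the last pair were the neighbours whose arrays overlapped. The TH and oocyte arrays did not overlap but lay close, with 0.69 between their means (SE 0.36).

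PLK1, the mitotic and meiotic kinase, was highest in the oocyte, at 4.43, 3.22, 3.18 and 3.31 in replicates 1 to 4 (3.54 ± 0.60, n = 4). It followed in CC at 1.43, 2.35, 1.46 and 2.04 (1.82 ± 0.45, n = 4) and in GC at 0.73, 0.77, 0.54 and 1.45 (0.87 ± 0.40, n = 4). Every oocyte array was above every array of the other groups, while the highest GC array fell within the CC range. TH arrays lay at -1.72, -0.59, -1.79 and -0.0064 (-1.03 ± 0.87, n = 4). CC-IVM arrays lay at -1.95, -1.37, -0.48 and -1.56 (-1.34 ± 0.62, n = 4). TH and CC-IVM overlapped each other and both lay below all GC and CC arrays.

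PLK3, the relative of PLK2, also had its highest level in the oocyte, at 4.73, 4.62, 4.53 and 4.83 (4.68 ± 0.13, n = 4). CC-IVM followed at 1.99, 2.35, 2.10 and 2.32 (2.19 ± 0.17, n = 4). Neither of these groups overlapped any other. TH was at -0.19, 0.65, 0.53 and 0.66 (0.41 ± 0.40, n = 4), and CC at -0.84, 1.08, -0.29 and 0.87 (0.20 ± 0.92, n = 4). GC was at -1.72, -1.53, -0.93 and -0.25 (-1.11 ± 0.66, n = 4). The CC arrays fell apart into a low and a high pair, and the CC range overlapped both TH and GC.

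PLK4, the centriole kinase, varied least. Its highest mean was in CC, at 0.028, 0.23, 0.014 and 0.10 (0.095 ± 0.10, n = 4), followed by GC at -0.77, -0.32, -0.99 and 0.41 (-0.42 ± 0.62, n = 4). CC-IVM lay at -0.80, -0.77, -0.44 and -0.74 (-0.69 ± 0.17, n = 4). TH was at -1.53, -0.78, -1.83 and -0.64 (-1.20 ± 0.58, n = 4), and the oocyte at -1.83, -1.99, -1.67 and -2.04 (-1.88 ± 0.17, n = 4). Each group overlapped its neighbour in this order, although the ends of the order did not: all oocyte arrays were below all GC, CC and CC-IVM arrays.

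**Figure D1:**
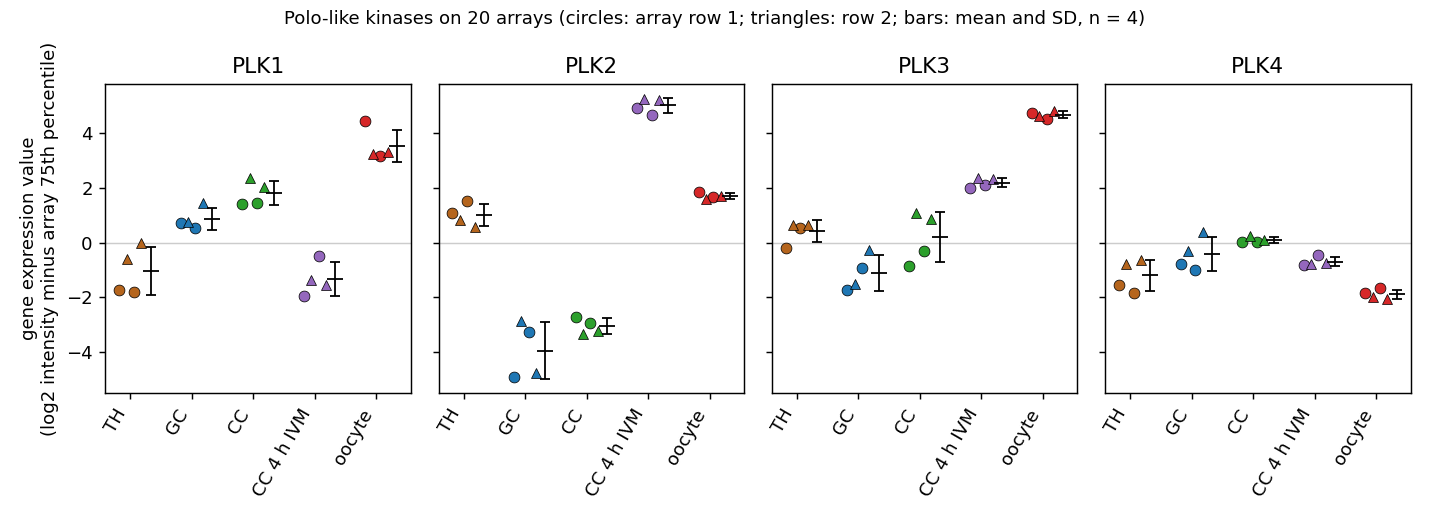
Gene expression value (log2 intensity minus the 75th percentile of the array) of PLK1, PLK2, PLK3 and PLK4 on each of the 20 arrays, with circles for array row 1, triangles for row 2 of the slide, and the mean with its SD beside each group of 4. PLK2 stands at 4.65 to 5.26 in CC-IVM and at -3.35 to -2.70 in CC, PLK1 and PLK3 are highest in the oocyte, and PLK4 is lowest there.

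The spots of a gene were compared, since the median hides their differences in brightness. The PLK1 probes were far apart. Probe 1 had means from -5.30 in CC-IVM to 0.25 in the oocyte and was well above background on 2 of 4 TH arrays and 1 of 4 CC-IVM arrays, while probe 2 had means from 2.52 in TH to 6.82 in the oocyte and was well above background on all 20 arrays. Both gave oocyte, CC and GC as the order at the top. They differed at the bottom, where probe 1 put CC-IVM below TH (-5.30 ± 0.97 against -4.57 ± 1.26, n = 4 each) and probe 2 put it just above (2.62 ± 0.60 against 2.52 ± 0.50, n = 4 each), in both cases within the spread. The high PLK1 value of oocyte replicate 1 came from probe 1, which read 1.93 there and -0.39 to -0.19 on the other oocyte arrays. The dimmer probe also carries more of the spread between arrays: in the oocyte its SD was 1.12, against 0.17 for probe 2. For PLK2 the 2 probes gave nearly equal group means, for example 4.86 and 5.17 in CC-IVM and 1.70 and 1.71 in the oocyte. The PLK3 duplicates repeated each other closely, with 4.25 and 4.21 in the oocyte for the spots of probe 1 and 5.14 and 5.11 for those of probe 2. The PLK4 probes had the same order of means, and the step from CC to the oocyte was from -0.16 to -1.94 in probe 1 and from 0.35 to -1.83 in probe 2.

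**Figure D2:**
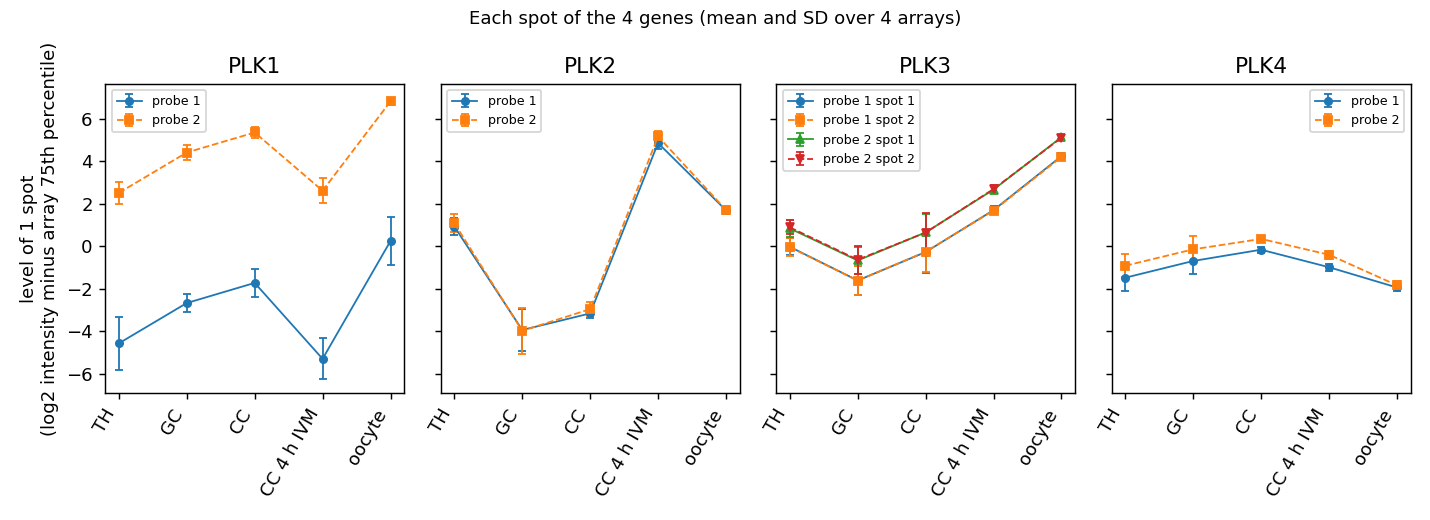
Level of each spot of the 4 kinases (log2 intensity minus the 75th percentile of the array, mean and SD over 4 arrays) in the 5 groups. The lines of a gene run nearly parallel, and the PLK1 probes are separated by several log2 units, with the oocyte at 0.25 for probe 1 and 6.82 for probe 2.

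The oocyte was set against the mean of the somatic TH, GC and CC, the comparison of the female gamete with the cells around it. PLK3 was higher in the oocyte by 4.84 (SE 0.33, 28.6-fold). PLK2 was higher by 3.71 (SE 0.32, 13.1-fold). PLK1 was higher by 2.98 (SE 0.33, 7.90-fold). For these 3 kinases no oocyte array overlapped the 12 somatic arrays. The size for PLK2 depends on which somatic cell stands beside the oocyte, since it was 5.66 above GC (SE 0.36), 4.76 above CC (SE 0.36) and 0.69 above TH. PLK4 was lower in the oocyte, at a difference of -1.38 (SE 0.24), and its oocyte range overlapped that of TH. Over all genes 32.9% were called higher and 38.3% lower in the oocyte by limma at an adjusted p of 0.05, so a difference in either direction was common.

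The size of the PLK4 difference depended on the scaling between arrays. The median difference of all genes was -0.52 as reported and ranged from -1.30 with normexp background correction to -0.014 with quantile normalization. Relative to that median, PLK4 in the oocyte was at -0.86 as reported, -1.34 with quantile normalization, -0.12 in the deposited log2 table and -0.026 with normexp. Before any scaling, the processed intensity of PLK4 was 385 to 729 in the oocyte and 547 to 726 in CC, which overlap. The oocyte arrays were brighter as a whole, with a 75th percentile of 1521 to 2891, against 536 to 657 on the CC arrays. Equal unscaled intensity is therefore a lower level relative to the array in the oocyte. The other kinases did not depend on the scaling in this way. Relative to the same medians, PLK1 stayed between 3.50 and 3.91, PLK2 between 3.60 and 4.34, and PLK3 between 5.21 and 6.04. These ranges span the 6 scalings and background corrections run. Those that only subtract another constant per array, the array median or the percentile over detected probes, repeat the reported relative values by construction.

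Cumulus cells after 4 h of IVM were set against CC, the comparison of maturing with immature cumulus. PLK2 was higher after IVM by 8.07 (SE 0.22, 269-fold). In unscaled terms its processed intensity was 60.8 to 82.3 in CC and 8671 to 12729 in CC-IVM. PLK3 was higher by 1.99 (SE 0.40, 3.96-fold). PLK1 was lower at a difference of -3.16 (SE 0.34) and PLK4 at -0.78 (SE 0.18). By probe, the PLK1 difference was -3.57 in probe 1, well above background on 1 of 4 CC-IVM arrays, and -2.74 in probe 2. The groups did not overlap for any of the 4 kinases, so that the family split into a pair that was higher and a pair that was lower. Over all genes 30.3% were called higher and 15.5% lower after IVM, and the median of all genes was 0.37. Relative to that median PLK1 lay at -3.52, PLK4 at -1.15, PLK3 at 1.62 and PLK2 at 7.71. Each kept its sign with quantile normalization, with normexp and in the deposited table. The scalings that only subtract another constant per array could not change these relative values. All 4 CC-IVM arrays lay on a slide of their own, with CC on the other 2 slides, so slide and IVM cannot be told apart. A random slide block, an alternative chosen after seeing the data, cannot separate them either, since no slide held both groups. By the design it leaves the 4 differences as they are.

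Oocyte RNA in the cumulus samples moved in the same direction as PLK1. All 6 oocyte markers were well above background on at least 3 CC arrays and 3 of the 6 on at least 3 CC-IVM arrays. Their summed level was -0.83 to 1.59 in CC, -2.64 to -0.84 in CC-IVM and 7.95 to 8.37 in the oocyte. The marker sum was thus more than 6 log2 units lower in CC than in the oocyte, while PLK1 was lower by 1.72 (SE 0.41). The part of oocyte RNA in the PLK1 difference between CC and CC-IVM was not tested. Markers of blood and vessel cells moved in the direction of PLK2 and PLK3. The 4 leukocyte and red cell markers summed to -3.48 to -2.21 in CC and -0.94 to -0.029 in CC-IVM, with 1 of 4 above background on at least 3 arrays in both, which was CD68 (means -2.89 and -0.74). The 3 endothelial markers summed to -5.63 to -4.86 in CC and -4.34 to -3.12 in CC-IVM, with 0 and 1 above background. Their part in the PLK2 and PLK3 differences was not tested.

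Among the somatic cells, TH stood apart from GC. PLK2 was higher in TH than in GC by 4.97 (SE 0.39, 31.3-fold) and PLK3 by 1.52 (SE 0.40, 2.87-fold), both with no overlap. The PLK2 difference was 3.32 with normexp background correction and 3.88 in the deposited table, with probe 2 above background on 2 of the 4 GC arrays. PLK1 was lower in TH at a difference of -1.90 (SE 0.40), without overlap, and PLK4 at -0.78 (SE 0.30), with overlapping arrays. TH and GC arrays of the same number deviated together, and within the 4 numbers the PLK4 difference was -0.77, -0.46, -0.85 and -1.04, lower in TH in 4 of 4 (SD 0.24). For the other 3 kinases 1 sign within all 4 numbers follows from the lack of overlap between the TH and GC arrays. By limma 11.8% of all genes were called higher and 14.5% lower in TH than in GC. Markers of other cells moved with TH. All 3 endothelial markers had their highest mean there, VWF within the spread of the oocyte and CDH5 above background on 1 TH array. Their summed level was 0.43 to 2.13 in TH, -4.66 to -3.15 in GC and -5.63 to -4.86 in CC, where none of the 3 was above background on at least 3 arrays. The oocyte sum, -1.23 to 1.01, overlapped that of TH. The leukocyte and red cell markers summed to -0.99 to 0.40 in TH, with 4 of 4 above background, and to -3.07 to -1.59 in GC, with 2 of 4. This sum was -0.15 to 0.23 in the oocyte and -0.94 to -0.029 in CC-IVM, both within the TH range. CD3E had its highest mean in the oocyte and CD68 in CC-IVM. The part of endothelial and blood cells in the PLK2 and PLK3 levels of TH was not tested. The 5 theca markers summed to 4.90, 6.84, 6.65 and 5.09 in GC replicates 1 to 4, against 9.17 to 9.70 in TH. Replicates 2 and 3, with the higher sums, were also the GC arrays with the higher PLK2 levels. The part of theca RNA in the GC levels was not tested. CC and GC, the neighbouring granulosa lineages, overlapped for all 4 kinases. The CC minus GC difference was 0.94 for PLK1 (SE 0.40), 0.90 for PLK2 (SE 0.39), 1.31 for PLK3 (SE 0.40) and 0.51 for PLK4 (SE 0.30), in a comparison where 5.27% of all genes were called higher and 4.61% lower. These small differences moved with the setting: PLK2 was at 0.13 with normexp and 0.58 without GC replicate 1, and PLK4 at 0.32 without GC replicate 3, 0.79 without GC replicate 4 and 0.12 on array row 2 alone.

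Replicates were also compared by the position of the array on its slide. Each slide had 2 rows, with replicates 1 and 3 in row 1 and replicates 2 and 4 in row 2. The pairs did not overlap in 13 of the 20 combinations of kinase and group, with row 2 higher in 10 of the 13. With 2 arrays against 2, pairs often fail to overlap by chance, and the combinations share arrays. The share over all genes was not counted, so this is not read as a trait of the kinases. In CC, PLK3 had a mean of -0.57 in row 1 and 0.98 in row 2. PLK1 in TH had -1.75 in row 1 and -0.30 in row 2, and PLK4 in GC -0.88 and 0.045. In the oocyte the rows of PLK3 were close (4.63 and 4.73). Fitted over all groups, the row 2 minus row 1 difference was 0.57 for PLK3 (SE 0.18), 0.38 for PLK1 (SE 0.26), 0.33 for PLK4 (SE 0.17) and -0.098 for PLK2 (SE 0.24). Over all 22550 genes limma called 0 genes for row and 2723 had an unadjusted p under 0.05. That is a larger share than the 0.05 that chance gives, and for slide the number was 1318 in the same fit. In row 1 and in row 2 alone, PLK1 was above the somatic mean in the oocyte by 3.70 and 2.26, PLK4 was below it (-0.91 and -1.85), and PLK2 was above CC in CC-IVM by 7.62 and 8.52. PLK3, with the largest row difference, was above the somatic mean in the oocyte by 5.20 and 4.48, above CC in CC-IVM by 2.61 and 1.36, and above GC in CC by 0.76 and 1.86.

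**Figure D3:**
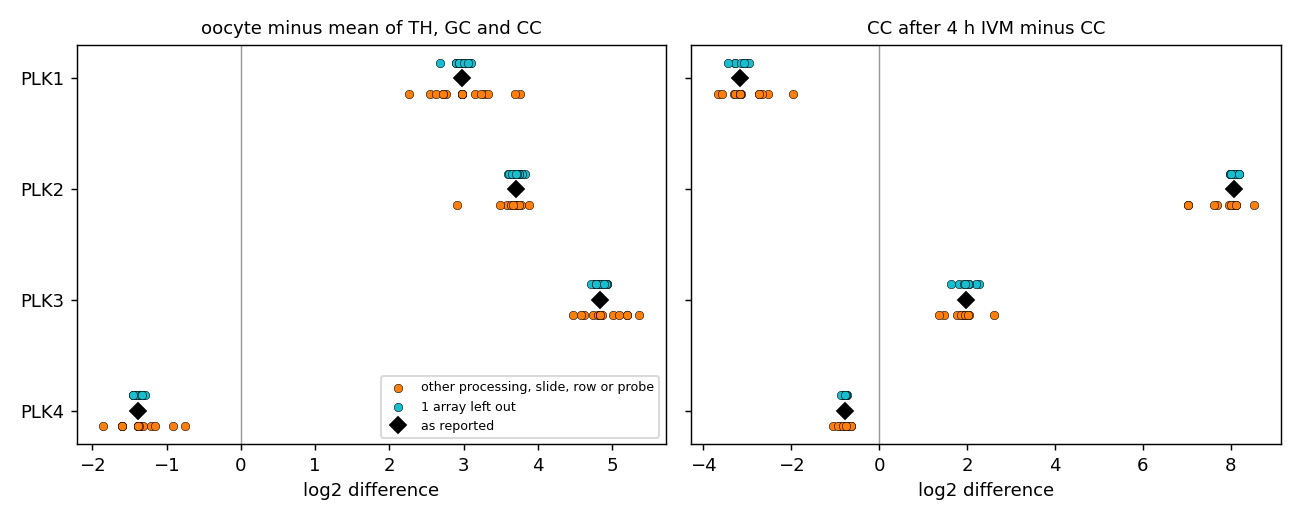
Log2 difference of each kinase between the oocyte and the somatic mean (left) and between CC-IVM and CC (right), as reported (diamonds), with 1 array left out (upper points) and under other processing, 1 slide, 1 array row or 1 probe (lower points). None of the points crosses 0, with PLK4 in the oocyte between -1.85 and -0.76 and PLK2 after IVM between 7.03 and 8.52.

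The partners of the kinases were followed in 4 lists of 85 genes found on the array. Their p-values are from limma with Benjamini-Hochberg adjustment over all 22550 genes. The lists, like the kinases, were chosen with earlier results of these data known. Their p-values and called shares thus describe these arrays and are not an independent test. The lists hold 25 regulators and partners of PLK1, 20 genes of the PLK4 centriole pathway, 23 immediate early and stress-response genes, to which PLK2 and PLK3 are related by their regulation, and 17 markers of dividing cells. Over the 4 cell types TH, GC, CC and oocyte the F-test called 24 of 25, 19 of 20, 22 of 23 and 13 of 17 of them, against 71.3% of all genes.

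In the oocyte 23 of the 25 PLK1 partners were higher and 1 was lower (92% and 4%, against 32.9% and 38.3% of all genes). Their median difference was 2.49. CDC25C, the phosphatase that activates CDK1, was higher by 6.26 (SE 0.25, adjusted p = 3.2e-12). FBXO5, the inhibitor of the anaphase-promoting complex known as EMI1, was higher by 5.33, and AURKA, the kinase that activates PLK1, by 5.21. The gene called lower was WEE1, which inhibits CDK1, at a difference of -6.13 (SE 0.25, adjusted p = 4.5e-12), well above background on 1 of 4 oocyte arrays. PLK1 itself was higher like most of this list.

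Of the 20 centriole genes 18 were higher in the oocyte and 0 lower (90% and 0%, against 32.9% and 38.3% of all genes). Their median was 2.01, whereas their kinase PLK4 was at -1.38. CENPJ, which sets centriole length, was higher by 3.90 (SE 0.13, adjusted p = 5e-13), POC1A, a centriole stability protein, by 3.54, and FBXW11, a subunit of the ligase that degrades PLK4, by 3.25. Of the dividing-cell markers 13 of 17 were higher and 0 lower (76.5% and 0%), with a median of 1.51. Among these CCNB1 (cyclin B) was higher by 4.65, CCNA2 (cyclin A) by 4.45 and NUSAP1, a spindle protein, by 4.14.

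The immediate early and stress-response genes went the other way in the oocyte from PLK2 and PLK3. Of 23, 5 were higher and 14 lower (21.7% and 60.9%, against 32.9% and 38.3% of all genes), with a median of -1.63. MYC differed by -8.04 (SE 0.32, adjusted p = 2.6e-12), above background on 3 of 4 oocyte arrays, and the transcription factors FOS and EGR1 by -6.26 and -5.23. KLF4 was higher by 3.41 and SESN2, a sestrin, by 3.08. FOSL1 was called higher by 2.03, but it was above background on 3 oocyte and 1 of the 12 somatic arrays, and with normexp background correction the difference was -0.73.

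After IVM the PLK1 partners were mostly lower, 18 of 25 against 1 higher (72% and 4%, against 15.5% and 30.3% of all genes). Their median was -1.29. The spindle checkpoint kinase BUB1B differed by -2.78 (SE 0.38, adjusted p = 5e-04), the phosphatase CDC25B by -2.49 and CDC20, the activator of the anaphase-promoting complex, by -1.97. The centriole genes were lower in 13 of 20 and higher in 0 (65% and 0%), with a median of -0.85. Among them PCNT, the pericentriolar scaffold, differed by -2.69, SPICE1 by -2.43 and CENPJ by -2.12. PLK1 and PLK4 were thus on the same side of 0 as the medians of their lists.

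The dividing-cell markers gave 12 lower and 1 higher of 17 after IVM (70.6% and 5.88%, against 15.5% and 30.3% of all genes). Their median was -1.04. The replication helicase subunits MCM5 and MCM2 differed by -3.10 and -3.22, MCM2 being above background on 1 of 4 CC-IVM arrays, and the topoisomerase TOP2A by -1.94. Over the alternatives the MCM2 difference ranged from -4.22 to -0.50 and that of MCM5 from -3.61 to -2.59. RRM2, a subunit of ribonucleotide reductase, was higher by 1.45.

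The immediate early and stress-response genes did not move as 1 block after IVM, with 6 higher and 8 lower of 23 (26.1% and 34.8%, against 30.3% and 15.5% of all genes) and a median of -0.13, against 0.37 for all genes. Beside PLK2 and PLK3, CDKN1A, the CDK inhibitor p21, was higher by 4.33 (SE 0.27, adjusted p = 6.5e-06), FOSL1 by 3.84, above background on 1 of 4 CC arrays, and the stress gene GADD45A by 3.10. JUN differed by -3.40 and MYC by -2.51.

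**Figure D4:**
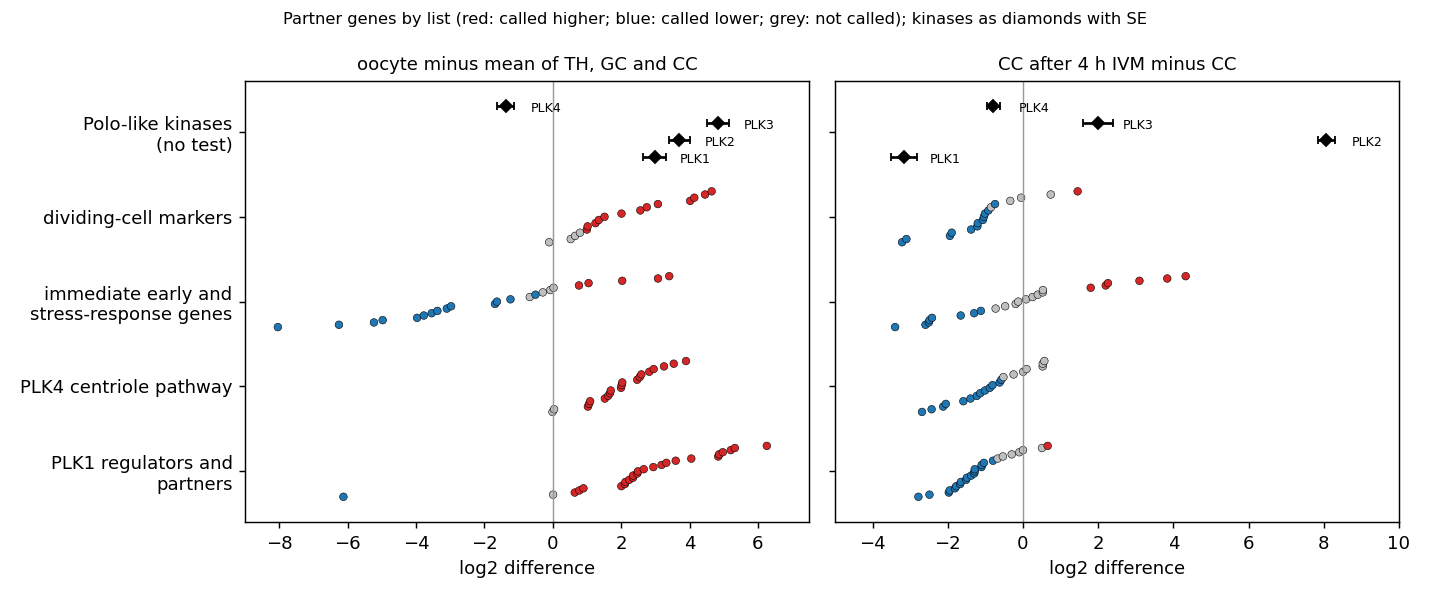
Log2 difference of each partner gene by list (dots; red called higher, blue called lower, grey not called) and of the 4 kinases (diamonds with SE, no test), for the oocyte against the somatic mean (left) and CC-IVM against CC (right). PLK1 lies on the same side of 0 as most of its partners in both panels, and PLK4 at -1.38 in the oocyte lies to the left of its 20 centriole genes, whose median is 2.01.

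Between the somatic cells fewer partners were called. In TH against GC 6 of the 85 were higher and 16 lower (7.06% and 18.8%, against 11.8% and 14.5% of all genes), shares near those of all genes. With the replicate number as a block 5 were higher and 21 lower. Of the 16, 7 were centriole genes (35% of that list, against 14.5% of all genes). There CEP135, a centriole assembly protein, differed by -2.77 and CENPJ by -1.36, and KLF4 was higher in TH by 3.44 and DUSP1, a phosphatase that acts on MAP kinases, by 2.53. In CC against GC 14 were higher and 2 lower (16.5% and 2.35%, against 5.27% and 4.61% of all genes). Of the 14, 11 were immediate early or stress-response genes (47.8% of that list), such as FOS by 2.87 and NR4A1 by 2.40. EGR2, not well above background in GC, was at least 1.46-fold higher in CC in the reported processing. Over the alternatives its log2 difference ranged from 0.18 to 2.69. Its call was lost in 5 of them, among these normexp and the deposited table. These calls depended on the arrays: without GC replicate 4 the number higher in CC was 33, and on slide 1 alone it was 1.

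The genes whose levels ran most like those of each kinase were found by Pearson r over the 20 arrays among 17430 other genes above background, as a description in which group differences dominate and in which all points share arrays. For PLK1 they were SHQ1, CDC20, CEP72, TTF2 and EEPD1, each with r = 0.96. CDC20 is also in the list of PLK1 partners. For PLK2 they were the chemokine receptor CXCR4 (r = 0.96), RAP1B (r = 0.95), LIN7C (r = 0.94), the nuclear receptor NR4A3 (r = 0.94) and HSD17B12 (r = 0.93). PLK3 ran with NDEL1 (r = 0.98), PACSIN2 (r = 0.97), NDNL2, KHDRBS3 and HAUS3 (each r = 0.96). PLK4 ran with DBF4, the activator of the replication kinase CDC7 (r = 0.95), VILL (r = 0.94), the transcript ENSBTAT00000056979 (r = 0.93), KCNH2 (r = 0.93) and ABCB8 (r = 0.93). CXCR4 showed the PLK2 order of its highest levels, with means of -1.52 in GC, -0.98 in CC, 1.74 in TH, 1.83 in the oocyte and 3.45 in CC-IVM.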

How the data were processed

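The authors deposited Agilent Feature Extraction 10.7.3.1 output for 20 one-colour (Cy3) arrays, 200 ng total RNA each, with intensity per spot as mean and median signal, background and a background-subtracted, detrended processed signal, not normalized between arrays. They also deposited a log2 table, which equalled log2 of the median signal minus the array median within 5e-09. From the processed signal, control and outlier spots were left out, log2 was taken, the 75th percentile of each array was subtracted, and the median over the spots of a gene was used. Of 9779 unnamed probes, 734 were named by accession. Models were fitted with limma 3.58.1 in R 4.3.3 (16 arrays for cell types, 8 for IVM), with Benjamini-Hochberg adjustment over 22550 genes and a threshold of 0.05, and tested on simulated data. Figures used matplotlib 3.10.9. A group of 4 had 1 value per array, and this number limits the precision. Named list genes were up to 3 per list, comparison and direction, with the largest called difference and no overlap between groups. For a group above background on no array, the fold is a bound against the lowest signal above background. Some items that this rule or the probes give are not reported here. Same-numbered arrays were checked for pairing by the correlation of their deviations from the group means. It was above 0.1 in 4 of 4 pairs (0.12 to 0.37) for TH with GC, taken as pairs from the data since the labels give no source, and not in all pairs for any other 2 groups (3 of 4 for GC with CC). TH and GC arrays of 1 number also share slide and row. The members and lists were chosen with earlier results of these data known. Alternatives were other scalings, background corrections, spot summaries, filters, blocks, analysis of variance, and leaving out each array. The array row, the random slide block and single probes were added after seeing the data.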

Additional observations from a re-analysis of the deposited data

Results flagged for a closer look

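In groups of 4 arrays, 16 of the 210 groups looked at for the 4 kinases and the named partner genes held 1 array whose gap to the others was large for the range of its group, where chance gives about 1 in 20. Among the kinases PLK1 in oocyte replicate 1 was at 4.43 against 3.18 to 3.31 on the other 3 arrays, and PLK3 in TH replicate 1 at -0.19 against 0.53 to 0.66. In GC replicate 4, AURKA was at 2.40, CCNB1 at 2.04, CCNA2 at -0.21 and MCM2 at -2.29, each above the other GC arrays, and MYC at 2.70, below them. PLK1 and PLK4 also had their highest GC values on that array, at 1.45 and 0.41. In the oocyte MCM2 was at -0.84 in replicate 1 (others -3.43 to -3.29), NUSAP1 at 6.06 in replicate 2 and SESN1 at -0.87 in replicate 3. In CC replicate 2, WEE1 was at -0.087 and SESN1 at -2.47, and in CC replicate 1 BORA was at 0.22. SPICE1 was at 0.76 in GC replicate 1, PPP1R12A at -1.27 in GC replicate 3 and EGR1 at 4.28 in CC-IVM replicate 1.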

How the results depend on the processing

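The oocyte and IVM differences of the kinases kept their direction in all 232 recomputed values, and 18 moved by more than the replicate SD. Many of the 232 could not differ from the reported value. The blocks for replicate, slide and row, the filter on dim genes and the fit of all arrays together repeat the reported differences by construction. So does the mean over spots for PLK1, PLK2 and PLK4. Only the other recomputed values could show a change of direction. With quantile normalization PLK1 in the oocyte was 3.75 and PLK2 after IVM 7.68. With normexp PLK2 in the oocyte was 2.91, and after IVM PLK1 was -1.96, PLK2 7.04 and PLK4 -0.64. In the deposited table PLK4 in the oocyte was -0.76, and after IVM PLK1 was -2.53, PLK2 7.03 and PLK4 -1.05. On array row 1 alone PLK1 and PLK4 in the oocyte were 3.70 and -0.91, and PLK2 and PLK4 after IVM 7.62 and -0.64. On row 2 alone these were 2.26, -1.85, 8.52 and -0.92.

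Some counts of list genes after IVM moved. Those called higher were, for the PLK1 list, the centriole list and the dividing-cell markers in turn, 6, 6 and 2 with normexp (8 centriole genes lower) and 2, 3 and 2 with a random slide block. In the PLK1 list 0 were higher with the percentile over detected probes, with the mean over spots, with the replicate block and on either row alone. The centriole list had 1 higher with quantile normalization or the deposited table and 2 with 20 arrays in 1 fit. On row 1 alone 9, 6 and 5 genes of these lists were lower, with 2 dividing-cell markers higher. On row 2 alone 8 centriole genes and 6 dividing-cell markers were lower, with 0 of the latter higher, and 3 immediate early and stress-response genes were higher and 5 lower. In the oocyte 3 genes of that list were higher on row 2, and the F-test called 8 dividing-cell markers. Leaving out 1 array at a time, the genes higher after IVM numbered 0 to 1, 0 to 2 and 1 to 2 in the 3 lists.

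Over all lists, 2 genes were higher and 5 lower in TH than in GC on slide 1 alone, 3 and 7 on slide 2 alone, and 26 (row 1) and 3 (row 2) were lower on single rows. In CC against GC, 23 were higher in the deposited table, 1 on slide 1 and 3 on row 2. Those lower numbered 1 on slide 1, 0 on slide 2, 1 on row 1 and 0 on row 2. Leaving out 1 array gave 13 to 33 higher. Of the 53 named list results, 20 lost the threshold under at least 1 alternative, 0 of 16 in the oocyte, 2 of 16 after IVM, 10 of 13 in TH and 8 of 8 in CC against GC. FOSL1 in the oocyte reversed with normexp (-0.73). The cause of these changes was not tested. With the replicate block the PLK1 difference in the oocyte stayed at 2.98, which the balanced design fixes, and 18 became 17 PLK1 partners lower after IVM. In TH against GC 4 became 8 PLK1 partners lower and 1 became 0 higher, as the call of PPP1R12A was lost. The other named list results kept their calls with this block. The number of arrays and, for PLK1 probe 1, a signal near background limit the precision.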

Other observations

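PLK5, a further gene of the family, was on the array but outside the 4 genes described. Of its 4 probes, 1 passed the background mark on all 20 arrays, with a mean level of 0.29 ± 0.12 (SD, n = 4) in the oocyte, -0.31 in CC, -0.37 in GC, -0.46 in CC-IVM and -0.54 ± 0.16 in TH. The others passed it on 12, 9 and 0 arrays. The probe seen on all arrays and the one seen on 12 carry the name of the same transcript.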
